A study of Homo sapiens with 12 samples.

Results

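The regions described here are BG4 binding sites whose midpoint lies 50 to 1000 bp downstream of the transcription start site (TSS) of a protein-coding gene. A consensus region was a peak overlapped by 1 bp or more by peaks of both other biological replicates, with such peaks merged. Of 6081 consensus regions, 654 (10.8%) lay downstream in this sense, 1702 lay 50 to 1000 bp upstream and 1296 lay within 50 bp of a TSS. The downstream regions were therefore 17.9% of the 3652 regions within 1000 bp of a protein-coding TSS (95% Wilson interval 16.7 to 19.2%). They belonged to 641 TSSs, 13 of which had 2 such regions, and 4 of them were mitochondrial. The regions were chosen by peak position and by presence in all 3 lists, so their number, position and reads in the same libraries are given as descriptions, with no test against other regions; a test was run only for differences between replicates.

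All libraries came from HEK293 cells, a long-established line of human embryonic kidney origin, grown in standard medium with no genetic or drug treatment named in the labels. In G4-ChIP-seq, formaldehyde-fixed, sonicated chromatin is precipitated with BG4, an antibody fragment that binds G-quadruplexes, and the recovered DNA is sequenced. Chromatin of 3 biological replicates, named BioRep1 to BioRep3, gave 3 technical libraries apiece plus an input, and the inputs were not analysed here. Every group is the same untreated cell line, so the design holds no treatment contrast and its comparisons are between positions, promoters and replicates.

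A G-quadruplex (G4) is a fold of guanine-rich DNA in which runs of guanine from one strand stack as planar tetrads. Such runs are common in promoters, on either strand, and accessible promoter DNA is where BG4 sites are usually found in cultured cells. A G4 downstream of the start in use lies in transcribed DNA, where a G4 on the coding strand is also present as sequence in the RNA, and a G4 on the template strand lies in the path of RNA polymerase.

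The stretches below show what a G4 motif in these regions looks like. The motif searched was 4 runs of GGG separated by 1 to 7 bases of any kind, on both strands. Each line gives the strand that carries the guanines relative to the gene, the position in GRCh38.p14 and the motif strand read 5′ to 3′, with the guanine runs in capitals, taken from RefSeq promoter sequence. The first set comes from downstream regions whose TSS windows were among the densest in BG4 reads.
GUK1, coding strand, chr1:228140068-228140089: GGGagaagacGGGctGGGaGGG
XPO1, template strand, chr2:61538524-61538543: GGGaGGGGaagtGGGGaGGG
MMS19, template strand, chr10:97498640-97498661: GGGagacGGGctgcGGGGcGGG
LOC124903762, template strand, chr16:29973816-29973840: GGGacgccGGGctaaaGGGGGcGGG
The second set was chosen after the values were seen, to show motifs on the coding strand (EIF5A, TBPL1, CCDC18 and RAB5A) and on the template strand (H3-3A, LCOR, RNF31 and DDX59).
EIF5A, coding strand, chr17:7307488-7307506: GGGtcggtGGGaGGGaGGG
TBPL1, coding strand, chr6:133953057-133953076: GGGtGGGGGcGGGGGacGGG
CCDC18, coding strand, chr1:93180417-93180436: GGGtaGGGactctGGGcGGG
H3-3A, template strand, chr1:226062253-226062268: GGGaGGGGaGGGaGGG
LCOR, template strand, chr10:96832695-96832712: GGGagcGGGGaGGGaGGG
RNF31, template strand, chr14:24146655-24146676: GGGcGGGGttgaGGGGGGcGGG
DDX59, template strand, chr1:200670033-200670047: GGGaGGGaGGGaGGG
RAB5A, coding strand, chr3:19947021-19947039: GGGaGGGattcGGGaaGGG
Measured from the TSS of the window, the middle of the motif lay at 497.5 bp in EIF5A, 896 bp in TBPL1, 507 bp in CCDC18, 409 bp in H3-3A and 421 bp in LCOR. In EIF5A, TBPL1 and CCDC18 the RefSeq start nearest to the region lay farther downstream than the motif. In RNF31, DDX59 and RAB5A it lay at -18, -70.5 and -49.5 bp, since those regions reach across the TSS.

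The downstream regions formed a group near the TSS and a long tail. Their median distance was 210 bp (quartiles 86 and 478 bp). Of the 654, 192 had midpoints 50 to 100 bp from the TSS, 131 at 100 to 200 bp, 109 at 200 to 400 bp and 222 at 400 to 1000 bp. Regions reaching back over the TSS base numbered 296 (45.3%), of which 188 were in the nearest class and 1 was in the farthest. A further 242 (37.0%) lay wholly outside the window of 400 bp around the TSS in which reads were counted. The median length was 332 bp (quartiles 243 and 453.5 bp), against 359 bp for upstream regions and 299.5 bp for regions at the TSS.

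The position was similar in the 3 peak lists, but this is in part a result of the rule. Each region was built from overlapping peaks of all 3 lists. Taken from each replicate's own peaks, the median centre over the 654 regions was 234.8 bp in BioRep1, 212.8 bp in BioRep2 and 211.2 bp in BioRep3, and the SD of a region's centre over the 3 lists had a median of 26.1 bp. In 524 regions (80.1%) the peaks of all 3 lists were centred at least 50 bp downstream. The peaks covered a median of 171.5 bp of a region in BioRep1, 253.5 bp in BioRep2 and 306.5 bp in BioRep3. The list with the fewest and shortest peaks, BioRep1, split 20.6% of the regions into 2 or more peaks, against 16.1% in BioRep2 and 6.58% in BioRep3.

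Just short of 50 bp lay regions of CZIB (49.5 bp), SPATA1 (49 bp) and CDCA5 (49 bp), and at 50 bp lay those of RO60, NADSYN1, TMPO and SCAF8. At the far end SLC35C1 (999 bp), DYRK1A (983.5 bp) and TBPL1 (981.5 bp) were inside, and FOXO3 (1002 bp), ZNF668 (1004.5 bp) and INTS6L (1009.5 bp) were outside.

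Whether BG4 regions sat more often upstream or downstream of the TSS depended on the distance. Among consensus regions 50 to 200 bp from the TSS, 18.8% were downstream (323 downstream, 1397 upstream). At 200 to 400 bp the share was 32.9% (interval 28.1 to 38.2%), and at 400 to 1000 bp it was 72.8% (222 downstream, 83 upstream, interval 67.5 to 77.5%). The same order was found in each list by itself: at 400 to 1000 bp the downstream share was 66.5%, 69.2% and 70.4% in BioRep1, BioRep2 and BioRep3 (mean 68.7% ± 2.0, SD, n = 3), and at 50 to 200 bp it was 26.4% ± 0.533. The shares at the short and the long distance differed by far more than the spread over the 3 lists. This comparison was chosen after the positions were seen.

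**Figure D1:**
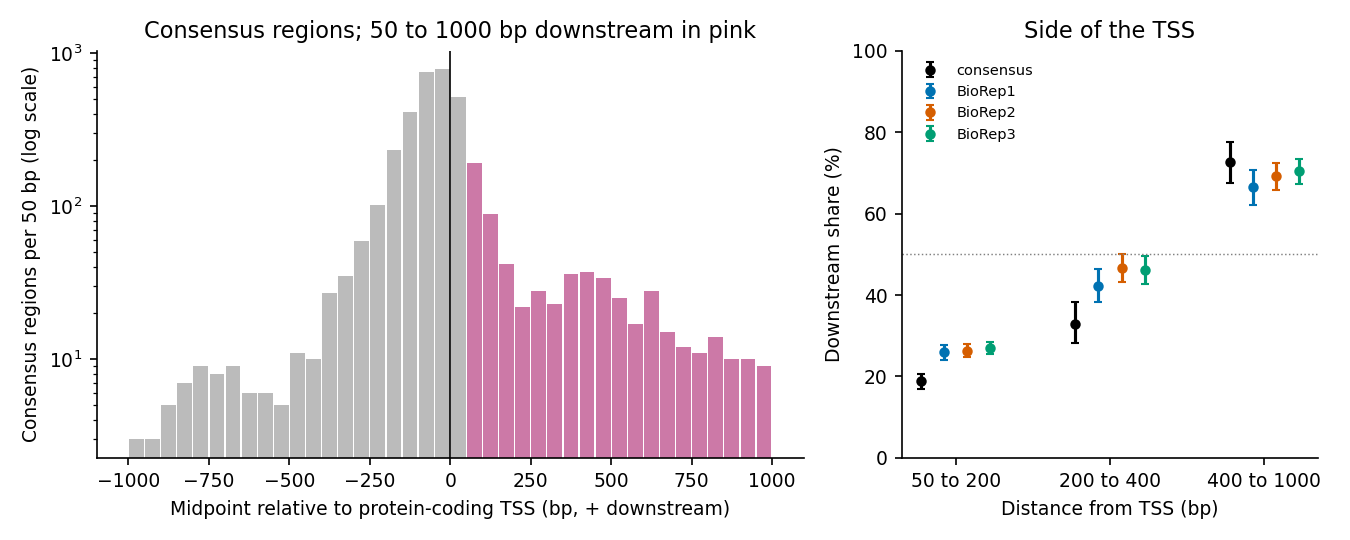
Left, number of consensus regions per 50 bp (log scale) against the position of the midpoint relative to the TSS of the nearest protein-coding gene, with the 654 downstream regions in pink. Right, downstream share of regions (consensus) or peaks (each list) by distance, with 95% Wilson intervals; the consensus share goes from 18.8% at 50 to 200 bp to 72.8% at 400 to 1000 bp.

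The far-downstream excess depended on which TSS was used. Each gene has a single TSS window, at the annotated 5′ end of the gene. An alternative start can lie downstream of the window TSS, but starts were not counted by side. RefSeq promoter rows were found for the genes of 560 of the 654 regions (85.6%). Of these genes, 47.7% had 2 or more RefSeq TSSs, against 21.1% for genes with an upstream region and 22.4% for genes with a region at the TSS. The share was 29.7% for regions at 50 to 100 bp and 61.9% for regions at 400 to 1000 bp. For upstream regions it was 22.3% and 23.1% at the same distances.

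Measured from the nearest RefSeq TSS of the same gene, the median position of the downstream regions was -10.3 bp, and 293 of 560 (52.3%, interval 48.2 to 56.4%) lay upstream of that start. Only 198 (35.4%) were still 50 bp or more downstream. Where the gene had 1 RefSeq TSS (293 regions), 131 (44.7%) lay upstream of it, and the median position was 25 bp. Where it had 2 or more (267 regions), 162 (60.7%) lay upstream of the nearest, and the median was -36 bp. Regions thus also changed sides at genes with no alternative RefSeq start. The shift was not particular to downstream regions. Regions less than 50 bp from the window TSS had a median position of -55 bp, and 969 of 1102 (87.9%) lay upstream of the nearest RefSeq TSS. Regions 50 to 100 bp upstream of the window TSS had a median of -95.5 bp. Of the 189 downstream regions at 400 to 1000 bp with RefSeq rows, 103 (54.5%) lay upstream of the nearest RefSeq TSS, at a median of -113 bp. Another 74 (39.2%) were 50 bp or more downstream of it. The side was also counted over all 3094 regions within 1000 bp of the window TSS with RefSeq rows. With the nearest RefSeq TSS, 62 were 400 to 1000 bp downstream and 97 as far upstream. That is a downstream share of 39.0% (interval 31.8 to 46.8%). With the window TSS, 189 were downstream and 65 upstream (74.4%). Each TSS selects its own regions at this distance, so the 2 shares are not of 1 fixed set. The start that HEK293 cells use was not measured in these libraries.

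**Figure D2:**
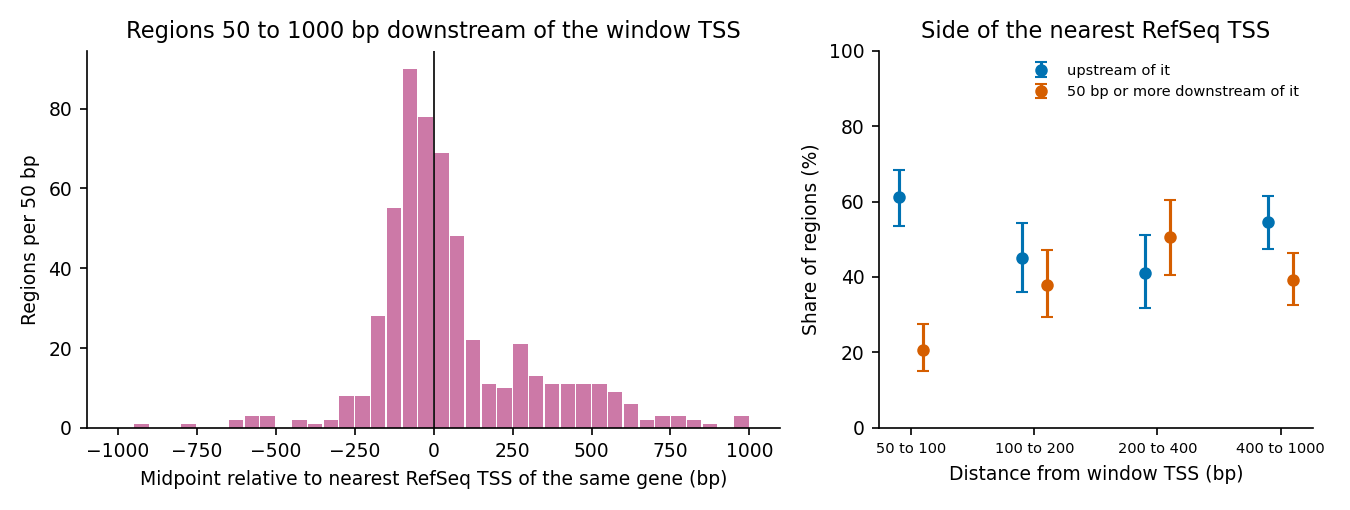
Left, the 560 downstream regions with RefSeq rows, counted per 50 bp by the position of the midpoint relative to the nearest RefSeq TSS of the same gene; the tallest bars lie just upstream of such a start. Right, share lying upstream of that TSS and share lying 50 bp or more downstream of it, by distance from the window TSS, with 95% Wilson intervals.

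Single genes show both arrangements. At H3-3A, which encodes the replication-independent histone H3.3, the consensus region ran from 136 to 1202 bp (chr1:226061988-226063053), and RefSeq gave starts at -20, 419, 596 and 865 bp. Its peaks covered 575 to 991 bp and 1046 to 1123 bp in BioRep1, and 136 to 1202 bp as 1 peak in BioRep3. At SLC35C1, a Golgi GDP-fucose transporter gene, the region centred at 999 bp lay at -78 bp relative to another RefSeq start. The regions of RPL15, a protein of the large ribosomal subunit (461.5 bp), of the kinase gene DYRK1A (983.5 bp) and of NPM1, the nucleolar protein nucleophosmin (544 bp), lay at -91.5, -216.5 and -189 bp from their nearest RefSeq start.

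Other regions stayed far downstream of the nearest RefSeq start. At EIF1, a translation initiation factor (502.5 bp), HNRNPA3, an RNA-binding hnRNP (551 bp), and ARL3, a small GTPase (524.5 bp), the nearest RefSeq TSS left the region at 502.5, 483 and 514.5 bp. All of these promoters also had a separate consensus region in the TSS window. At ARL3 the second site ran from 415 to 433 bp in BioRep1 and from 399 to 650 bp in BioRep3. RNF31, a subunit of the linear ubiquitin ligase complex, had 2 downstream regions, centred at 86 and 700 bp, and the peaks of the second ran from 567 to 826 bp, 563 to 838 bp and 562 to 838 bp in the 3 lists. This second site covers a RefSeq start at 815 bp and so belongs to the first arrangement. It also touches the TSS window of another gene, which held 57.6 ± 4.55 CPM, and has an opposite-strand TSS within 1 kb.

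**Figure D3:**
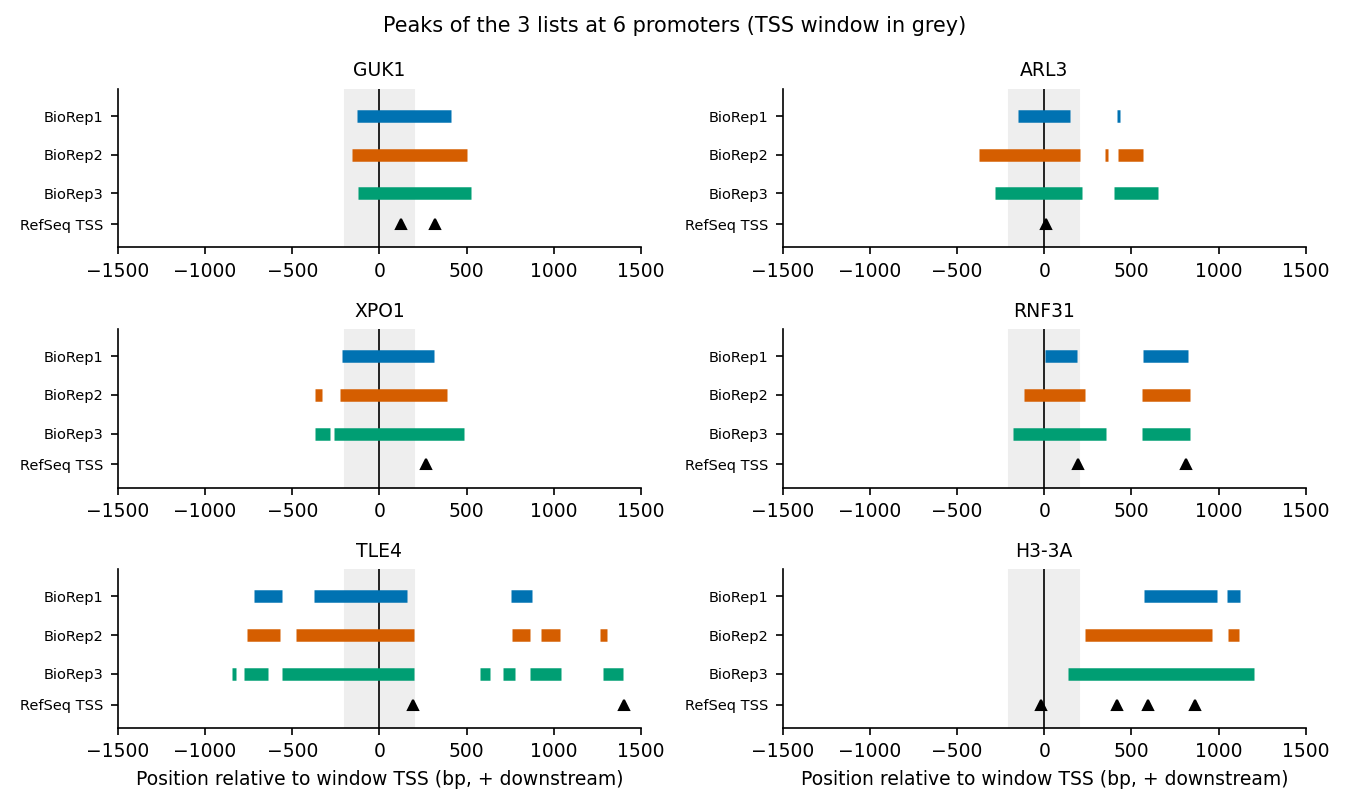
Peaks of the 3 lists (bars) at 6 promoters against the position relative to the window TSS in bp, with the counting window in grey and RefSeq TSSs as triangles. GUK1 and XPO1 have 1 broad site over the TSS, and XPO1 also has short upstream peaks in BioRep2 and BioRep3. TLE4, ARL3 and RNF31 have a second site downstream, and TLE4 has a further site upstream in all 3 lists. H3-3A has peaks only beyond the TSS, among 3 further RefSeq starts.

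Neighbouring genes added further starts. Another annotated TSS, of any gene type, lay within 1 kb of 263 downstream regions (40.2%), on the opposite strand for 238 (36.4%); for upstream regions the shares were 34.7% and 30.9%, and for regions at the TSS 42.0% and 38.1%. Of the 654, 165 (25.2%) lay upstream of another TSS, and 108 (16.5%) were nearer to another TSS than to the protein-coding one. The region at NR2C2, a nuclear receptor gene, was centred 837.5 bp downstream, and the NR2C2 window held 36.1 ± 6.40 CPM (read counts scaled to the reads in all windows of a library; mean ± SD, n = 3). The window of FGD5-AS1, a non-coding RNA that the region touches, held 104.9 ± 4.45 CPM. Likewise the region assigned to NARF touched the window of NARF-AS2, with 98.3 ± 9.25 CPM against 47.1 ± 2.33 in its own.

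Read density in the TSS window was averaged over technical libraries in each biological replicate and is given in CPM as mean ± SD over 3 biological replicates. The windows of downstream regions had a median of 51.5, 52.8 and 55.1 CPM in BioRep1, BioRep2 and BioRep3 (53.1 ± 1.81), over 637 nuclear windows. Upstream regions had 65.5 ± 3.87, regions at the TSS 63.6 ± 3.00, and protein-coding windows with no peak in any list 10.6 ± 0.433. The replicates of the first class did not overlap with those of any other.

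The lower density went with distance. For downstream regions the median was 66.2 ± 2.89 CPM at 50 to 100 bp, 61.2 ± 1.06 at 100 to 200 bp, 48.7 ± 0.839 at 200 to 400 bp and 32.6 ± 0.529 at 400 to 1000 bp. Upstream regions at the same distances had 65.4 ± 4.04, 70.0 ± 4.56, 58.7 ± 2.60 and 43.8 ± 2.01. Beyond 100 bp the replicates of the 2 sides did not overlap, and at 50 to 100 bp they did. The sides were not matched for region length. Upstream regions had the longer median at 100 to 200 bp (387 against 355.5 bp) and at 200 to 400 bp (472 against 299 bp). Downstream regions had it at 50 to 100 bp (344 against 320 bp) and at 400 to 1000 bp (326 against 287.5 bp). The effect of length on density was not tested.

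Density also differed with whether the region reached the counting window. The 409 regions that touched the window had a median of 60.8 ± 1.33 CPM. For 124 regions that lay outside a window with no peak in it, the median was 22.7 ± 1.24 CPM, above the 10.6 of peak-free promoters although no list had a peak there; single windows ranged from 8.21 to 38.9 CPM. For 60 regions outside a window that held another consensus region, it was 65.7 ± 2.75. Those windows cover the other region, and the reads of the downstream site itself were not counted.

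**Figure D4:**
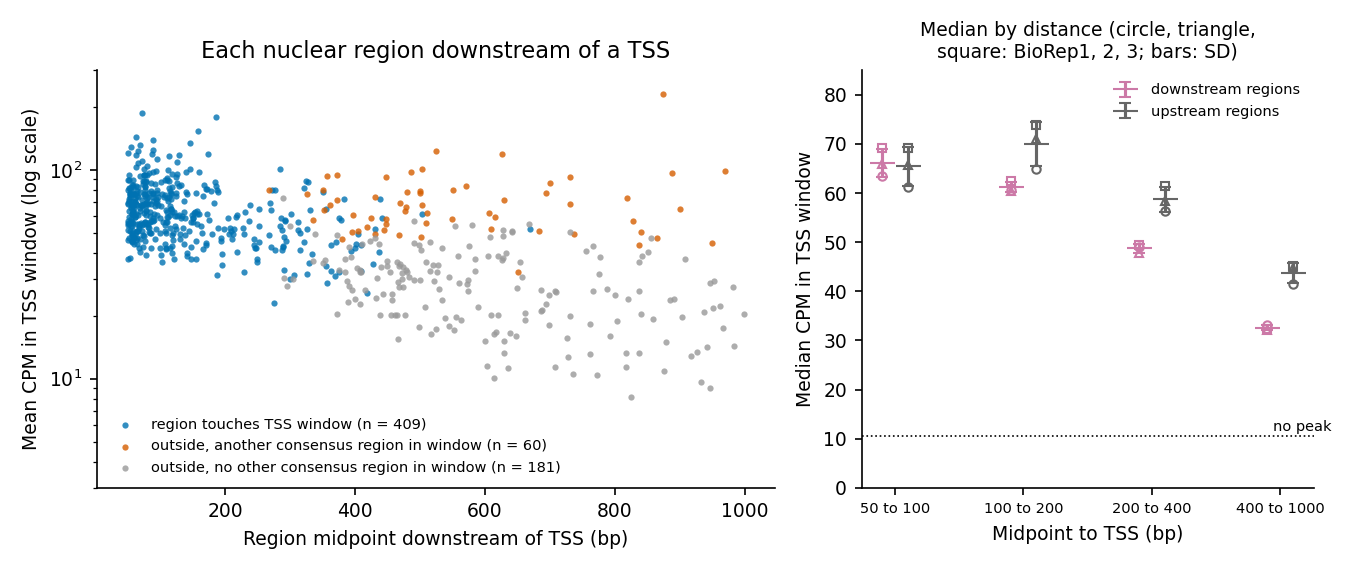
Left, mean CPM in the TSS window (log scale) against the distance of the region, 1 point per nuclear downstream region, by whether the region touches the window. Right, median CPM of downstream and upstream regions by distance, with points for the 3 replicates, bars for the mean and SD, and the peak-free level of 10.6 CPM as a dotted line.

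The densest windows belonged to genes of unrelated roles. TLE4, a Groucho-type transcriptional corepressor, held 205.9, 238.4 and 249.7 CPM in the 3 replicates, with a lowest library at 195.7, but its downstream region (chr9:79572483-79572813, centred at 874.5 bp) lay outside the window, which had its own consensus region. GUK1, the guanylate kinase that phosphorylates GMP, held 170.7, 183.4 and 184.3 CPM, and its region of 685 bp (chr1:228139806-228140490) ran from -157 to 528 bp. GUK1 lies on chromosome 1 beyond 200 Mb, where non-coding windows with no peak averaged 12.1 ± 0.434 CPM against 8.62 ± 0.461 on other autosomal sequence. Of the downstream regions, 19 lay in that segment, among them those of H3-3A, EPRS1, DDX59 and TMEM9. The uncharacterised gene LOC124903762 held 181.8, 182.9 and 199.5 CPM.

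GADD45A, a stress-response gene, held 149.3, 152.9 and 160.7 CPM, with little spread, and its region was centred at 158 bp. FBRS held 121.5, 138.9 and 170 CPM under the longest downstream region (1241 bp, chr16:30657875-30659115). MMS19, a component of cytosolic iron-sulfur cluster assembly, held 109.8, 137.8 and 157 CPM. XPO1, the main nuclear export receptor for proteins, held 109.6, 114.8 and 126.8 CPM. In all of these nuclear windows, from TLE4 to XPO1, BioRep1 was lowest and BioRep3 highest, as for the median of the class. This order was not particular to downstream regions. Medians were 61.4, 66.1 and 69.05 CPM for upstream regions and 60.2, 64.6 and 65.9 for regions at the TSS. Windows with no peak had the reverse order (11.1, 10.5 and 10.2 CPM). CHKB, a choline kinase gene (139.1 ± 9.78 CPM), and AP4B1, a subunit of the AP-4 adaptor complex (131.4 ± 21.3), had an opposite-strand TSS within 1 kb, and their regions touched the window of another gene. The same held for MMS19, whose region touched the window of the protein-coding gene UBTD1 (108.2 ± 18.8 CPM).

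The lowest densities were at distant regions. POLD2, a subunit of DNA polymerase delta, held 11.1, 10.5 and 9.84 CPM, at the level of peak-free windows, and its region centred at 736 bp lay at -74 bp from the RefSeq start. NPM1 held 17.7, 20.2 and 15.6 CPM, RPL15 held 20.4, 22.7 and 17.8, and DYRK1A held 17.0, 12.6 and 13.3. In all of these the window itself had no peak in any list.

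The mitochondrial regions were assigned to ND6, COX3, ATP6 and COX2, which encode respiratory chain and ATP synthase subunits. Their windows held between 559.2 ± 77.3 CPM (COX2) and 993.1 ± 152 CPM (ND6), and BioRep1 was the highest replicate in each. Mitochondrial genes are transcribed as long polycistronic RNAs, so a gene start there is not a promoter, and mitochondrial DNA is present in many copies per cell. BG4 binding and DNA copy number cannot be told apart without the inputs.

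By function, the downstream regions were spread over most gene families. Over all nuclear protein-coding windows, 637 of 14197 (4.49%) had one, and 18.1% of the 3521 genes with any region within 1 kb. These shares are the background for the families, whose lists were drawn up by symbol and are described by counts only. Among machinery of gene expression, downstream regions were found at 4 of 23 aminoacyl-tRNA synthetases, which charge tRNAs, including EPRS1 (69.4 ± 5.44 CPM), CARS1 (60.0 ± 6.07) and TARS1 (56.1 ± 1.14). Chromatin modifiers and remodellers had 9 of 66, including the histone demethylase gene KDM4A (73.5 ± 12.4) and the heterochromatin protein genes CBX1 (54.95 ± 2.74) and CBX5 (50.3 ± 2.31).

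Splicing factors and hnRNPs had 6 of 55, with HNRNPDL (96.4 ± 14.3 CPM), HNRNPA3 (80.4 ± 8.11) and HNRNPF (77.5 ± 7.46), and DEAD and DEAH box helicases, which remodel RNA, had 4 of 39, with DDX59 (101.5 ± 13.9), DDX42 (84.3 ± 9.39) and DDX27 (45.9 ± 5.81). Translation factors had 4 of 50, with EIF1 (101.1 ± 7.45), EIF4H (51.3 ± 7.77) and EIF5A (43.9 ± 3.04). RNA polymerase II and Mediator genes had 5 of 62, including MED11 (59.1 ± 3.68), the TFIIA subunit gene GTF2A1 (54.0 ± 3.97) and TAF5, a TFIID subunit gene (50.3 ± 4.22). Relative to genes that had any region, these 6 families had downstream shares of 14.3 to 26.7%, around the 18.1% of all genes.

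Among genes of protein turnover and trafficking, ubiquitin conjugating and deubiquitinating enzymes had 8 of 87, among them the deubiquitinases USP1 (87.2 ± 11.6 CPM) and USP5 (81.6 ± 7.83); the list also took in USP6NL, a GTPase-activating protein that shares only the symbol. RAB and ARF GTPases had 7 of 91, with ARL3 (123.5 ± 14.4), RAB4B (97.4 ± 11.96) and RAB5A (76.0 ± 12.3). Chaperones had 4 of 55 and proteasome subunits 1 of 35, PSMD8 (80.3 ± 12.4).

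Cytosolic ribosomal proteins had 2 of 56 (RPL8 and RPL15), although 25 of the 56 had a region within 1 kb, so that 8.0% of the genes with a region had it downstream. Solute carriers had 4 of 238, also 8.33% of those with a region. Nuclear respiratory chain genes had 3 of 72 and mitochondrial ribosomal proteins 3 of 60. DNA replication genes had 2 of 25 (POLA2 and POLD2), and cyclin, CDK and E2F genes 4 of 74; CDC42EP4, the densest of the last list, is a CDC42 effector taken in by its symbol.

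Zinc finger genes named ZNF had 19 of 416, close to the share of all windows, and 24.4% of those with a region. Histone genes had 1 of 87, H3-3A, and 68 of the 87 had no peak at all. No downstream region was found at 27 HOX genes, 358 olfactory receptor genes or 13 genes with textbook G4 promoters, of which 5, 0 and 3 had a region elsewhere within 1 kb. Among 12 helicases and binding factors of G-quadruplexes, NPM1 alone had one.

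Promoter sequence differed among the downstream regions by distance. RefSeq promoter sequence, from 250 bases before to 50 after a start, was matched for 483 of their TSS windows. It held the G4 motif in 29.6% (interval 25.7 to 33.8%), against 42.1% for upstream regions, 35.4% for regions at the TSS, 24.7% for promoters with no peak, 29.4% for all protein-coding windows and 24.8% for all promoters of the RefSeq table. The share was 40.4% for regions at 50 to 100 bp, 33.0% at 100 to 200 bp, 26.2% at 200 to 400 bp and 18.5% (interval 13.2 to 25.5%) at 400 to 1000 bp. In the farthest class the interval reached past the 24.7% of promoters with no peak. That stretch ends 50 bases after the start and does not contain the distant regions themselves.

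Base composition followed the same order. In the last 50 bases before the start, G and C made up 71.5% at promoters with a region 50 to 100 bp downstream, 64.9% with a region 400 to 1000 bp downstream, 72.7% with an upstream region and 59.6% with no peak. In the first 50 bases after the start, guanine exceeded cytosine on the coding strand by 4.66 percentage points in the downstream class, 8.56 in the upstream class and 0.951 in promoters with no peak.

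**Figure D5:**
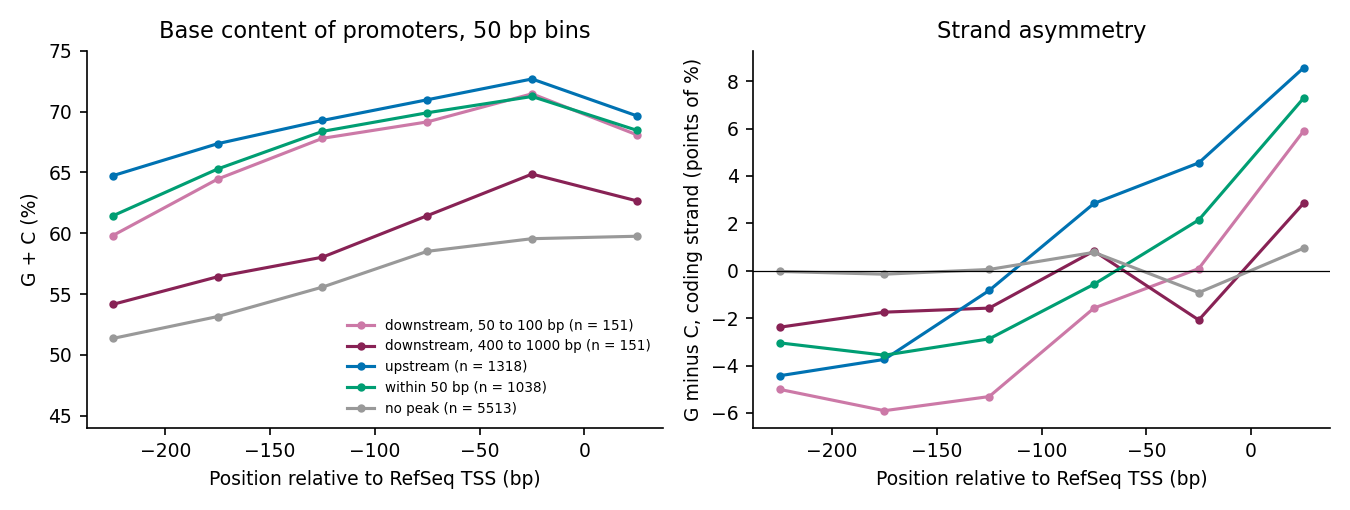
Left, G + C content of RefSeq promoters per 50 bp against the position relative to the RefSeq TSS, for 2 distance classes of downstream regions, upstream regions, regions within 50 bp of the TSS and promoters with no peak. Right, guanine minus cytosine on the coding strand in percentage points; promoters with a region 400 to 1000 bp downstream lie between the near class and the peak-free promoters in G + C.

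The sequence of the regions themselves was known in part, where a RefSeq promoter row of any start overlapped them. At least 100 bases were known for 443 downstream regions, and 173 of these (39.1%, interval 34.6 to 43.7%) held the motif in the known bases, against 38.5% of upstream regions and 30.1% of regions at the TSS. Downstream regions at 50 to 200 bp held 0.856 motifs per kb on the coding strand and 0.911 on the template strand. Those at 200 to 1000 bp held 1.45 and 0.689, and of the 82 with a motif 58 had it on the coding strand only, 21 on the template strand only and 3 on both. Upstream regions held 1.02 and 1.04 per kb, regions at the TSS 0.697 and 0.908, and all RefSeq promoters 0.625 and 0.559. EIF5A, TBPL1 and CCDC18 above are coding-strand examples of the distant kind, and H3-3A is a template-strand one. The split at 200 bp was chosen after seeing the values, and known sequence favours regions near a RefSeq start.

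No downstream window passed the test of a difference between biological replicates. A quasi-likelihood test in edgeR over the 3 replicates, with Benjamini-Hochberg adjustment over 17499 windows, called 0 windows (0.0%), and 0 of the 623 downstream windows tested; at an unadjusted p under 0.05 it gave 53 downstream windows (8.51%) beside 7.87% of all windows. DESeq2 also called 0. There, 26 of 641 downstream windows were under the unadjusted threshold, beside 807 of all 56196 windows tested. That is a larger share than over all windows, in a set not filtered on low counts. The median log2 difference of downstream windows was 0.03 for BioRep2 minus BioRep1 and 0.04 for BioRep3 minus BioRep1. Over all windows tested these medians were -0.003 and -0.001. For BioRep3 minus BioRep2 the median was 0.008 in downstream windows and -0.0007 over all. A rise from BioRep1 to BioRep3 was shared by the other classes with a region. Median CPM went from 51.5 to 55.1 for downstream regions, from 61.4 to 69.05 for upstream regions and from 60.2 to 65.9 for regions at the TSS. Libraries held 372030 to 846114 reads in windows.

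The smallest p-values among the downstream windows were at TMEM9, IFT122 and PCK2. TMEM9, a lysosomal membrane protein gene, held 48.3, 20.3 and 42.1 CPM, with BioRep2 low (adjusted p = 0.0892 in edgeR). IFT122, an intraflagellar transport gene, held 70.1, 109.6 and 116.1 CPM, with BioRep1 low (adjusted p = 0.15 in edgeR). PCK2, the mitochondrial PEP carboxykinase gene, held 92.6, 81.8 and 58.8 CPM, with BioRep3 low (adjusted p = 0.15 in edgeR). The replicate that stood apart was a different one in each gene. Without a filter on low counts, TMEM9 (adjusted p = 0.0456) and IFT122 (adjusted p = 0.0142) passed the threshold in edgeR. These were 2 of 641 downstream windows, beside 25 of all 56196 windows.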

How the data were processed

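BG4 ChIP reads of HEK293 cells were deposited as raw counts per window of 400 bp around annotated TSSs (hg38), without scaling by depth or input, and as 1 peak list of coordinates per biological replicate, with no score. Per the submitters' processing notes cutadapt, BWA, Picard, MACS2 and bedtools were used. Not given in the sources used here are the peak thresholds and whether marked duplicates were counted, and the effect of duplicates on the counts was not tested. Replicates and technical numbers come from the sample titles. The titles do not state separate cultures, and p-values measure only the spread between technical libraries.

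Windows were named from RefSeq genes (GRCh38.p14) with a 5′ end within 200 bp on the same strand: 14214 of 58381 were protein-coding, for 20052 RefSeq genes, and 317 wrong-strand pairs were dropped. Exons were not used here. Peaks were merged and placed by midpoint. CPM is scaled to reads in windows, not the full library. Wilson intervals (95%) and SDs cover counting error and replicate spread only. Windows were tested with edgeR 4.0.16 (TMM, filterByExpr, robust quasi-likelihood fit, R 4.3.3), with DESeq2 1.42.0 as an alternative; on simulated data between replicates with 18186 windows recovery was 25.4% at 1.5-fold, 85.1% at 2-fold and 100% at 3-fold, and 6 unchanged windows were called. The simulation gave every window the common dispersion of 0.0011 and added no spread between biological replicates, so recovery in the real data may be lower. Technical numbers did not pair libraries across replicates (correlations -0.0146 to 0.0263). Python 3.11.15, numpy 2.4.6, pandas 2.3.3 and scipy 1.17.1 were used.

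The regions, gene lists and tests were chosen with earlier results of these data known. Genes were named by rule: the 10 windows with the highest lowest library, the 5 longest and 5 most distant regions, 3 regions on each side of each limit, up to 3 genes per list, up to 5 genes with 2 regions, up to 5 whose region touches another gene's window, and the 3 smallest p-values. As mitochondrial genes took 4 of the first 10, the same rule without them was added after seeing the values, and not every gene the rule names is described. POLD2, NPM1 and RPL15 stand for low densities and were picked after their values were seen. The comparisons by side of the TSS, by RefSeq start and by motif strand were added in the same way.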

Additional observations from a re-analysis of the deposited data

How the results depend on the processing

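The downstream share of regions 400 to 1000 bp from the TSS was 69.2 to 75.5% under the other alternatives, but came to 38.99% with the nearest RefSeq TSS of the gene, an alternative chosen after seeing the data. The number of downstream regions was 1074 with peaks shared by 2 or more lists, 337 with only peaks wider than their list's median, 1148 with naming within 1 kb and 1170 with the nearest TSS of any gene; leaving out 1 list gave 688 to 1008, the highest without BioRep1. The median distance was 230.5 bp with an overlap of 50% of the peak, 245.5 bp with 2 or more lists, 189 bp with wide peaks, 196 bp with peaks of 50 bp or more, 194.2 bp with merging within 100 bp, 346.8 bp from the RefSeq 5′ end, 270 bp with naming within 1 kb, 257.2 bp with any TSS, 113.8 and 386.2 bp with lower limits of 25 and 100 bp, and 233.5 to 243.8 bp with a list left out. The median length was 169 bp with the 50% overlap, 257.5 bp with 2 or more lists, 418 bp with wide peaks and 250 to 295.5 bp with a list left out. The mean density in place of the median was 55.62 CPM. Motifs with loops of 1 to 12 bases were in 48.24% of promoters, another TSS within 500 bp was found for 29.36% of regions, and naming within 1 kb took the list genes from 93 to 177.

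Without a filter on low counts edgeR called 25 of 56196 windows, and 2 of the 641 downstream ones. These were TMEM9 (adjusted p = 0.0456 in edgeR) and IFT122 (adjusted p = 0.0142 in edgeR). With 1 library left out, edgeR called 0 to 1 of all windows and 0 downstream ones. With the technical number as a replicate block it called 0 windows, 0 of them downstream. Of 1260 recomputed densities of 84 named genes, 37 moved by more than 1 SD. Peak lists carry no score, reads were counted only within 200 bp of a TSS, and sequence was known only near RefSeq starts; these limit what can be said of the distant regions.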
